A study of Mus musculus with 2 samples.

Results

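The genes of the DNA replication machinery were 44 genes whose products license origins, unwind DNA, make primers and new strands, and supply deoxynucleotides. They were taken by symbol from a fixed list, through the gene IDs of the files, out of 21461 nuclear protein-coding genes, and all 44 had a row in both libraries. Expression was measured by rRNA-depleted total RNA sequencing of mouse primary cells that the labels call megakaryocyte, the platelet-forming cell of bone marrow. There were 2 libraries of 1 group, from male adult C57BL/6J mice of 5 to 6 weeks, and each started from 100 ng of RNA with the ScriptSeq chemistry. No treatment, allele or second genotype is named. Library 1 has a stated range of 221 to 1000 nucleotides, and library 2 one of 200 to 1000. The labels call the libraries biological replicates but name the same donor for both, so the spread between them may be technical. With no second group, levels were compared between genes within each library, and the libraries with each other, without a test between conditions.

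DNA replication starts at origins, where the origin recognition complex (ORC), Cdc6 and Cdt1 load the MCM2-7 ring in G1. In S phase, Cdc45 and GINS join the ring to form the replicative helicase, and DNA polymerase alpha-primase makes the primers that polymerases delta and epsilon extend. In bone marrow, dividing precursors of the blood lineages use this machinery, while megakaryocytes also copy their genome repeatedly without cell division and become polyploid. Many genes of this machinery are transcribed at the G1 to S transition under E2F factors and pocket proteins, the RB family.

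The summed expected counts, which are estimated read counts per gene, were 42703213 in library 1 and 50532821 in library 2. TPM is the standard length-scaled unit, and nuclear protein-coding genes held 24.0% and 26.8% of its total over all kinds of RNA, so TPM values are low for coding genes in general. Most defining markers went against the label. Of 13 megakaryocyte and platelet markers, 11 were under 1 TPM in both libraries, and they summed to 9.44 TPM in library 1 and to 11.2 in library 2. Gp5 and Gp6 had 0 counts in both, which allows up to 3 counts in each library, and Pf4 had 0 and 3 counts. The 2 markers at 1 TPM or more in both were Itga2b, with 3.26 and 4.89 TPM, and Itgb3, with 5.92 and 5.66 TPM. These 2 made up most of the sum. Neutrophil and promyelocyte markers, all 12 at 10 TPM or more in both libraries, summed to 14590 and 13870 TPM, and all 8 monocyte markers together to 7150 and 9433 TPM. Erythroid markers summed to 130.7 and 66.4 TPM over 12 genes, with 7 of them at 1 TPM or more in both. The cells are therefore called by their label only, as the libraries labelled megakaryocyte.

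Transcripts of every gene of the replication machinery were detected. Each of the 44 reached 1 TPM in both libraries, and 31 reached 10 TPM in both. Among all nuclear protein-coding genes, 16.9% reached 10 TPM in both libraries, and among the 9100 genes at 1 TPM or more in both, 39.8% did. The median of the 44 mean levels was 16.2 TPM, beside 0.28 TPM over all nuclear protein-coding genes and 8.035 TPM over the 9100 detected ones. Of the 44 genes, 33 stood above the 50th percentile of the detected genes. Levels ran from 1.23 ± 0.198 TPM for Orc1, at percentile 1.1, to 127.9 ± 6.81 TPM for Pcna, at percentile 96.7 (SD, n = 2 libraries). The order of the genes was much the same in both libraries, with a Spearman rho of 0.964 across these 44 genes, which share their libraries and are not independent replicates.

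**Figure D1:**
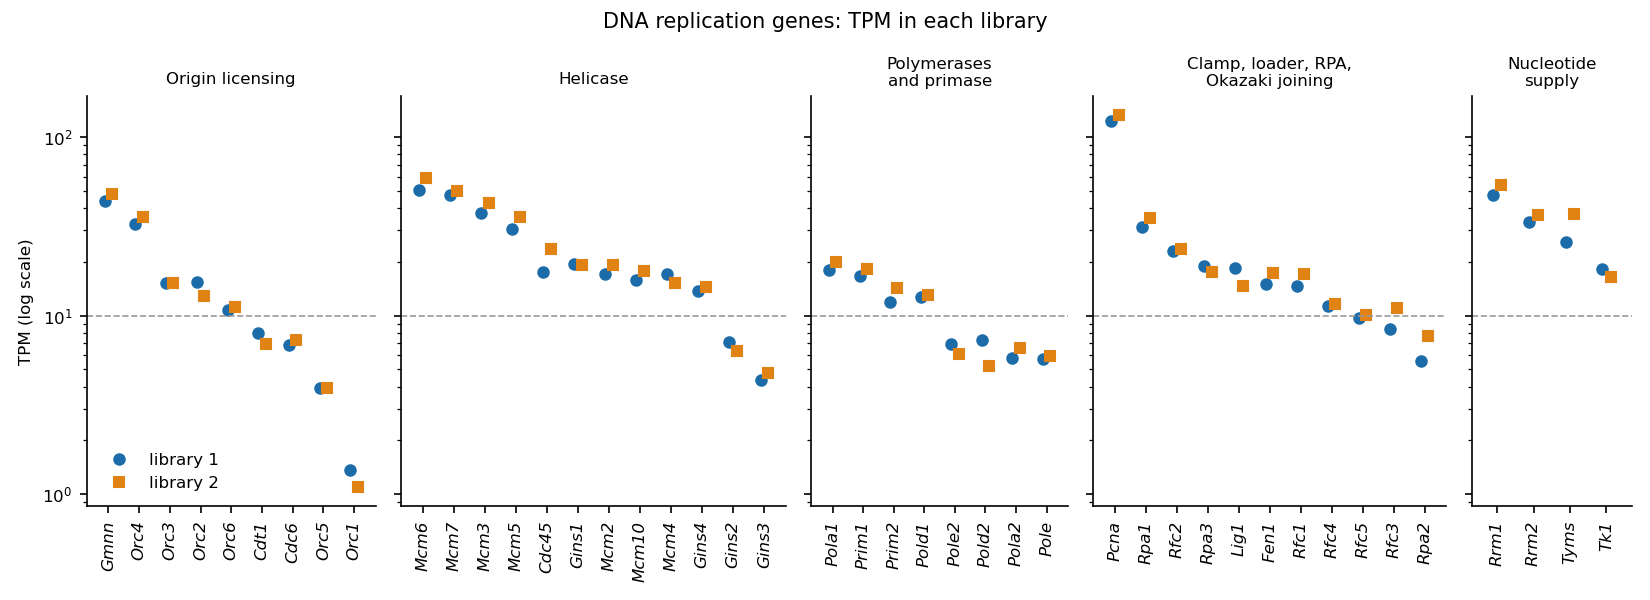
TPM on a log scale of the 44 DNA replication genes by step, with circles for library 1 and squares for library 2; the dashed line marks 10 TPM. Within each step the genes run from the highest to the lowest mean, and both libraries place Pcna highest and Orc1 lowest.

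The promoters of these genes often held E2F letters. RefSeq promoter windows on GRCm38.p6, 250 bases before to 50 after the start, matched 36 of the 44 genes, and Gmnn, Mcm4, Gins1, Gins2, Gins4, Prim2, Pole and Rfc2 had no entry. The E2F letters searched were the run TTCCCGC, the run TTGGCGC, the run TTCGCGC and the run TTGCCGC, on either strand, and matches may overlap one another. They were present in 23 of 36 genes (63.9%), beside 20.6% of 7331 nuclear protein-coding genes at 1 TPM or more in both libraries and 10.9% of all 27025 genes of the table. At least 2 matches were found in 9 of the 36 genes (25.0%), beside 3.07% of the detected protein-coding genes. A match is a description of the letters and not a bound site. The windows with 3 or more matches are shown next, with that of Pcna, the highest gene, which had none. Each is 5′ to 3′ on the strand of its gene, and capitals mark the E2F letters on either strand.
Mcm6, chr1:128359656-128359955, minus strand: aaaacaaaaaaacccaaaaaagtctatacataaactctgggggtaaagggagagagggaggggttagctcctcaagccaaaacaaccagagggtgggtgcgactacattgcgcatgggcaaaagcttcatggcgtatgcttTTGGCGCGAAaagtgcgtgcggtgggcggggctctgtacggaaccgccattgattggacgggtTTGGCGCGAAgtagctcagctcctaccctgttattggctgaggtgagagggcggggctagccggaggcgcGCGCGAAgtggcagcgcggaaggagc
Pola1, chrX:93632106-93632405, minus strand: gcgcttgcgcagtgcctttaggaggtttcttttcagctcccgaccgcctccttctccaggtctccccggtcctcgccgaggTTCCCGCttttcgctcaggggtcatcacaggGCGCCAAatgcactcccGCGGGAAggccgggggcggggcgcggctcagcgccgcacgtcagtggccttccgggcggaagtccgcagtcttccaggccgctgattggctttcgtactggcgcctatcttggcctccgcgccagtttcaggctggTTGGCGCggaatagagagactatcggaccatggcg
Mcm3, chr1:20820263-20820562, minus strand: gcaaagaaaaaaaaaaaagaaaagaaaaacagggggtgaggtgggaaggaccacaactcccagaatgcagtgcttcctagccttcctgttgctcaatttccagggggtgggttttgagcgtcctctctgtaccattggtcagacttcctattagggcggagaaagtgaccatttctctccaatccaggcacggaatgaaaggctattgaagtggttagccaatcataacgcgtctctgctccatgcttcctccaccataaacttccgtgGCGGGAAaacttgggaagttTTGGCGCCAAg
Mcm5, chr8:75109259-75109558, plus strand: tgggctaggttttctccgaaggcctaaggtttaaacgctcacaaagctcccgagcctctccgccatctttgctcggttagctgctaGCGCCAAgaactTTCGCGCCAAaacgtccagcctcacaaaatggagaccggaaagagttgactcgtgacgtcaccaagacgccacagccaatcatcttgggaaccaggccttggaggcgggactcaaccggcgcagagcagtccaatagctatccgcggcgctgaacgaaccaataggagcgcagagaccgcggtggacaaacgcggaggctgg
Mcm7, chr5:138171834-138172133, minus strand: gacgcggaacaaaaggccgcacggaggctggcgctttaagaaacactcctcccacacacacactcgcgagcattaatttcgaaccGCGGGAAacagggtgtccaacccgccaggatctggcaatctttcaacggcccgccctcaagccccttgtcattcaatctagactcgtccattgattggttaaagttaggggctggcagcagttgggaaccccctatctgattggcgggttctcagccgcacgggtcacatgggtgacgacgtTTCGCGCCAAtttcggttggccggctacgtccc
Pcna, chr2:132253131-132253430, minus strand: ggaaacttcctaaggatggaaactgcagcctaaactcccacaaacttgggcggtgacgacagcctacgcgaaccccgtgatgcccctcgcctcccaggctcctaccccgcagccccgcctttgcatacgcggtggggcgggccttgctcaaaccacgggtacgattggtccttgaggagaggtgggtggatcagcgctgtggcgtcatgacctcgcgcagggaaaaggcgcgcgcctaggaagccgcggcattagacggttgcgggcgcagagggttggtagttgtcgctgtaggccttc

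Mcm6 carried 5 matches, the most of any of the 36 genes, beginning at positions -109, -106, -46, -43 and 24 relative to the start, which is position 0. The first 4 of them form a pair of overlapping runs in which TTGGCGC on one strand runs into GCGCGAA on the other. Pola1 carried 4 separate matches, at positions -169, -138, -121 and 15. Mcm3 and this window of Mcm7 each had an overlapping pair just after the start, and Mcm5 had 3 matches from position -164 to -149. By step, matches were found in 5 of 8 licensing genes, 5 of 8 helicase genes, 4 of 6 polymerase genes, 7 of 10 genes of the clamp and joining step and 2 of 4 nucleotide genes. The 13 genes without these letters were Orc2, Orc5, Orc6, Mcm2, Mcm10, Cdc45, Pola2, Pold2, Pcna, Rfc5, Rpa1, Tk1 and Tyms. The median level was 16.2 TPM over genes with the letters and 16.8 TPM over genes without them.

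Letters of other cell-cycle elements were searched in the same windows. CCAAT, the letters of the CCAAT box, searched on either strand, was present in 23 of the 36 replication genes (63.9%), including 8 of 8 helicase genes, beside 43.6% of detected protein-coding genes and 41.1% of all genes of the table. Both CCAAT and E2F letters were present in 15 of the 36. The same share over detected or all genes was not computed. Whether CCAAT and E2F letters share windows more often than unrelated letters would was not tested. The cell cycle homology region, searched as TTTGAA or TTCGAA on either strand, was present in 7 of 36 (19.4%), beside 17.2% of detected protein-coding genes and 21.7% of all genes. A list of 32 mitosis and cytokinesis genes, of which 26 had a window, served for comparison, with E2F letters in 4 of 26 (15.4%), CCAAT in 22 of 26 (84.6%) and the cell cycle homology letters in 21 of 26 (80.8%). Of 37 further replication genes, 32 had a window and 18 of these (56.2%) held E2F letters.

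**Figure D2:**
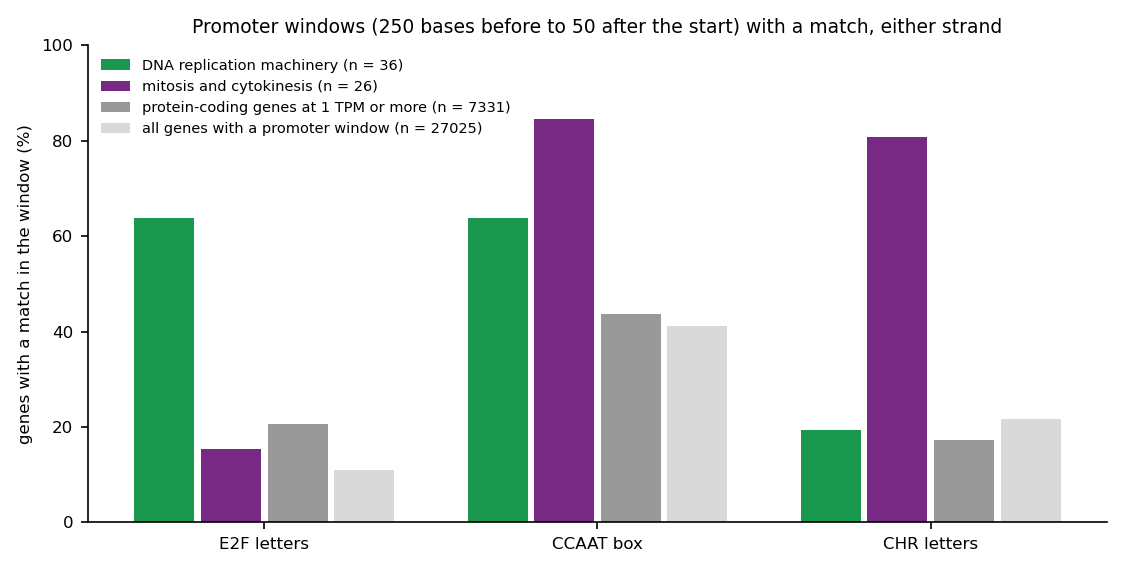
Percent of genes with E2F letters, CCAAT or cell cycle homology letters (CHR) in the promoter window, for the 36 DNA replication genes, 26 mitosis genes, 7331 detected protein-coding genes and all 27025 genes of the table. The replication genes stand above both backgrounds for E2F letters, at 63.9%, and next to them for CHR letters, at 19.4%.

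Origin licensing covered a wide span of levels, with a median of 10.9 TPM over 9 genes and 5 of them at 10 TPM or more in both libraries. Gmnn encodes geminin, which binds Cdt1 and prevents relicensing in the same cycle, and was the highest gene of the step. Gmnn (chromosome 13, 24751845 to 24761923) had 3264 and 3954 counts in libraries 1 and 2, or 44.05 and 47.9 TPM (mean 45.99 ± 2.75 TPM, SD, n = 2). Its partner Cdt1, the loader of MCM2-7, had 8.02 TPM in library 1 and 6.95 TPM in library 2, so that geminin transcripts exceeded those of Cdt1 by 5.49-fold and 6.9-fold. Cdc6, the ATPase that works with ORC in loading, had 6.86 and 7.29 TPM, and Gmnn exceeded it by 6.42-fold and 6.58-fold.

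The 6 ORC genes were the least even of the complexes. Orc4, an ATPase subunit, had 32.6 and 35.5 TPM, Orc3 had 15.3 in both libraries (15.26 and 15.31 TPM), and Orc2 had 15.4 and 12.8 TPM. Lower levels were measured for Orc6, the smallest subunit, with 10.7 and 11.2 TPM, and for Orc5, with 3.94 and 3.93 TPM. Orc1 (chromosome 4, 108579423 to 108614833), the subunit whose ATPase activity drives the complex, was the lowest of all 44 genes, with 246 and 290 counts, or 1.37 and 1.09 TPM. The highest subunit exceeded the lowest by 23.8-fold in library 1 and 32.6-fold in library 2, with Orc4 over Orc1 in both. Orc1 had the lowest TPM in each library, whereas Orc2 and Orc3 changed places. For Orc1 the deposited TPM interval was 1.23 to 4.37 in library 1 and 0.984 to 4.73 in library 2, which takes in the levels of Orc5, so its place below Orc5 is not sure. By posterior mean TPM, Orc1 was at 2.38 TPM and the mean of the spans in the 2 libraries was 14.4-fold in place of 28.2-fold.

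The helicase genes were higher, with a median of 18.8 TPM over 12 genes and 10 of 12 at 10 TPM or more in both libraries. All 6 genes of the MCM2-7 ring reached 10 TPM in each library, with a median of 36.6 TPM. Mcm6 (chromosome 1, 128331590 to 128359664) had 13413 and 17331 counts, or 50.8 and 59.1 TPM (mean 54.95 ± 5.82 TPM, SD, n = 2), and was the highest of the ring. Mcm7 followed with 47.2 and 49.9 TPM, Mcm3 with 37.5 and 42.6 TPM and Mcm5 with 30.5 and 35.8 TPM. This order of the top 4 was the same in both libraries, and the ranges of these 4 genes over the libraries did not overlap. Mcm2 had 17.2 and 19.2 TPM and Mcm4 had 17.2 and 15.2 TPM, and these last 2 changed places between libraries. The ring proteins assemble in equal numbers, while the highest transcript exceeded the lowest by 2.96-fold in library 1 and 3.88-fold in library 2.

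The factors that activate the ring were lower than its upper members. Cdc45, a subunit of the active helicase, had 17.65 and 23.6 TPM, and Mcm10, which helps to activate it, had 15.8 and 17.8 TPM. Among the GINS genes, whose 4 products form 1 complex, Gins1 had 19.55 and 19.2 TPM and Gins4 had 13.8 and 14.5 TPM. Gins2 had 7.16 and 6.33 TPM. Gins3 (chromosome 8, 95633453 to 95645060) was the lowest gene of the step, with 952 and 1178 counts, or 4.34 and 4.75 TPM (mean 4.545 ± 0.29 TPM, SD, n = 2). The order Gins1, Gins4, Gins2, Gins3 held in both libraries, with Gins1 over Gins3 by 4.5-fold and 4.03-fold.

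The polymerase and primase genes had the lowest median of the 5 steps, 9.695 TPM over 8 genes, with 4 at 10 TPM or more in both libraries. Pola1 (chromosome X, 93304767 to 93632155), the catalytic subunit of polymerase alpha, led them with 9203 and 11642 counts, or 18.1 and 20.1 TPM (mean 19.1 ± 1.43 TPM, SD, n = 2). Its primase partners were close behind, with 16.6 and 18.2 TPM for Prim1, the catalytic subunit, and 11.98 and 14.2 TPM for Prim2, the large subunit. Pola2, the accessory subunit of the same complex, had 5.82 and 6.62 TPM, so Pola1 exceeded it by 3.1-fold and 3.03-fold. Pold1, the catalytic subunit of the lagging-strand polymerase delta, had 12.7 and 13.1 TPM, and its accessory subunit Pold2 had 7.28 and 5.21 TPM. Pole (chromosome 5, 110286306 to 110337474), the catalytic subunit of the leading-strand polymerase epsilon, was the lowest of the step, with 3196 and 3692 counts, or 5.75 and 5.97 TPM (mean 5.86 ± 0.156 TPM, SD, n = 2). Its partner Pole2 had 6.91 and 6.1 TPM, and Pold1 exceeded Pole by 2.2-fold and 2.19-fold. The ranges of Pola2 and Pold2 over the libraries overlapped those of Pole and of Pole2.

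The clamp stood far above the other 43 genes. Pcna (chromosome 2, 132249162 to 132253314) encodes the ring that tethers polymerases to DNA and had 14483 and 18145 counts, or 123 and 133 TPM. It held 13.6% and 13.5% of the summed TPM of the 44 genes and exceeded Mcm6, the next highest by mean, by 2.42-fold and 2.25-fold. Its counts were not whole numbers in either library, and that of Tk1 was not whole in library 2. Those of the other 42 genes were whole within 0.005 in both. A processed pseudogene on chromosome 19, Pcna-ps2, was given 393 and 443 counts, or 3.8 and 3.81 TPM, and Pcna-ps1 was at 0, so the split of reads between Pcna and this copy is uncertain.

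The clamp loader RFC opens and closes the ring and was more even. Rfc2 had 23.1 and 23.7 TPM and Rfc1, the large subunit, had 14.7 and 17 TPM. Rfc4 had 11.3 and 11.6 TPM, Rfc5 had 9.72 and 10.04 TPM and Rfc3 had 8.43 and 11.04 TPM. The highest subunit exceeded the lowest by 2.74-fold in library 1, over Rfc3, and by 2.36-fold in library 2, over Rfc5. The values of Rfc3 and Rfc5 overlapped between the libraries, and those of Rfc4 lay just above both. Pcna exceeded Rfc1 by 8.39-fold and 7.8-fold.

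Single-strand binding and joining of Okazaki fragments completed the step, whose median was 16.2 TPM over 11 genes. Rpa1, the large subunit of the single-strand binding protein RPA, had 31.25 and 35.2 TPM, and Rpa3, the smallest subunit, had 18.9 and 17.6 TPM. Rpa2 (chromosome 4, 132768332 to 132778752), the middle subunit, was the lowest gene of the step, with 841 and 1269 counts, or 5.54 and 7.66 TPM (mean 6.6 ± 1.5 TPM, SD, n = 2). Rpa1 thus exceeded Rpa2 by 5.64-fold and 4.59-fold. Fen1, the nuclease that trims flaps, had 15.04 and 17.3 TPM, and Lig1, the ligase that seals the nicks, had 18.5 and 14.6 TPM. The order of Fen1 and Lig1 was not the same in both libraries.

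All 4 genes of deoxynucleotide supply reached 10 TPM in each library, with a median of 33.4 TPM, the highest of the 5 steps. Rrm1 (chromosome 7, 102441695 to 102469771), the large subunit of ribonucleotide reductase, had 17944 and 23218 counts, or 47.5 and 54.2 TPM (mean 50.8 ± 4.74 TPM, SD, n = 2). Rrm2, its small subunit in dividing cells, had 33.6 and 36.7 TPM, and Rrm1 exceeded it by 1.41-fold and 1.48-fold. Rrm2b, the small subunit used outside S phase, was lower at 4.17 and 3.75 TPM, so Rrm2 exceeded it by 8.06-fold and 9.79-fold. Tyms, the thymidylate synthase, had 26 and 37.3 TPM for the whole gene. Tk1 (chromosome 11, 117815526 to 117826092), the cytosolic thymidine kinase of dividing cells, was the lowest of the step with 1907 and 2102 counts, or 18.3 and 16.5 TPM (mean 17.4 ± 1.29 TPM, SD, n = 2). The mitochondrial kinase Tk2 had 3.4 and 3.01 TPM, below Tk1 by a ratio of 5.39 and 5.48.

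Most of the 44 genes had the larger part of their signal in transcripts annotated as coding, with Tyms the clearest exception by the deposited division of reads. Total RNA holds unspliced and noncoding forms, and the deposited transcript tables divide each gene's TPM among annotated transcripts. In both libraries, 22 of the 44 genes had 90% or more of their TPM in transcripts annotated as protein coding, beside 58.7% of the 9100 detected genes. The median over the 44 genes was 95.2% in library 1 and 92.55% in library 2. Under 50% by TPM in both libraries were 4 genes, Orc4, Gins2, Rfc1 and Tyms, a share near that of the detected genes, 7.36%. By expected counts only Rfc1 and Tyms were, and the rest of Rfc1 has no annotated type. In addition, Pold1 was under 50% in library 2, at 51.1% and 47.9%. The leading transcript was the same in both libraries for 41 genes and was protein coding for 37 of these. The others were the same 4 genes, and the leading transcript of Rfc1 had no annotated type. The same shares over the detected genes were not computed.

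Tyms (chromosome 5, 30058202 to 30073617) showed the lowest coding share. Its coding transcript Tyms-201, of 3163 bases with 921 coding bases, had 3.27 and 2.25 TPM, or 12.6% and 6.03% of the gene. The transcript Tyms-205, of 618 bases and annotated as a target of nonsense-mediated decay, had 18.2 and 25.1 TPM, or 69.98% and 67.3%. The retained-intron transcript Tyms-202 had 2.59 and 8.04 TPM. By expected counts, which are not divided by length, the coding share was 35.6% and 22.1%, still under 50% in both libraries. The effective length of the gene was 1039 bases in library 1 and 800 bases in library 2, so that its log2 ratio of library 1 over library 2 was -0.52 by TPM and -0.08 by scaled counts. By this division of reads, coding Tyms transcripts were below those of Tk1, whose coding transcripts took 71.8% and 79.7% of 18.3 and 16.5 TPM. Whether reads were divided rightly between Tyms-201 and the much shorter Tyms-205 was not tested, so the level of coding Tyms RNA is uncertain.

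Orc4 (chromosome 2, 48902824 to 48950277) and Gins2 (chromosome 8, 120578633 to 120589304) had large shares in short noncoding transcripts. Orc4 had 35.0% and 39.9% of its TPM in coding transcripts, or 11.4 and 14.2 TPM. Its leading transcript Orc4-206, a noncoding form of 424 bases, had 9.71 and 11.2 TPM but only 197 and 243 of the 3558 and 3821 counts of the gene. The long coding transcript Orc4-201, of 4066 bases, had 5.57 and 4.83 TPM with 2144 and 2108 counts. By counts, the coding share of Orc4 was 65.9% and 63.7%. Gins2 had 20.7% and 28.6% of its TPM in coding transcripts, or 1.48 and 1.81 TPM for Gins2-201, against 4.35 and 2.68 TPM for the 473-base Gins2-202. By counts, out of 692 and 887, its coding share was 78.7% and 85.3%, so the call for both genes depends on dividing few reads by a short length.

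Rfc1 (chromosome 5, 65261850 to 65335670) was a case of the annotation. Of its 6468 and 7678 counts, the protein-coding Rfc1-201 took 4.49 and 6.86 TPM, or 30.6% and 40.3% of the gene. A transcript of like effective length, 4528 and 4515 bases, took 9.3 and 7.63 TPM, or 63.4% and 44.9%. Its ID was not matched in the annotation used for types, and it could therefore be counted neither as coding nor as noncoding. Over the 44 genes, 9 of 214 transcripts had no type.

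Coding shares of TPM differed by more than 10 percentage points between the libraries for 6 of the 44 genes, Orc1, Orc5, Mcm10, Pold2, Rpa1 and Lig1, while 18.7% of the detected genes did so. By expected counts Orc1, with 89.0% and 96.5%, and Rpa1, with 96.4% and 90.2%, differed less than that, whereas Rfc1 and Tyms differed more. For Lig1 the coding share was 59.2% in library 1 and 84.5% in library 2, or 43.7% and 85.8% by expected counts. The noncoding transcript Lig1-207 had 4.79 TPM in library 1 and 0.04 TPM in library 2, and the coding Lig1-201 had 2.81 and 6.5 TPM. For Pold2 the coding share was 58.7% and 100%, with a retained-intron transcript at 2.9 TPM in library 1 and listed at 0 in library 2. The coding transcript Pold2-201 had 4.27 and 5.21 TPM, and the retained-intron form took 79.9 of the 690 counts of library 1. The effective length of Pold2 was 945.8 bases in library 1 and 1410 bases in library 2, so that its log2 ratio of library 1 over library 2 was 0.48 by TPM and -0.03 by scaled counts (interval -0.18 to 0.12). Mcm10 moved the other way, with 71.2% coding in library 1 and 58.2% in library 2, and its retained-intron transcript Mcm10-204 had 1.48 and 5.06 TPM.

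**Figure D3:**
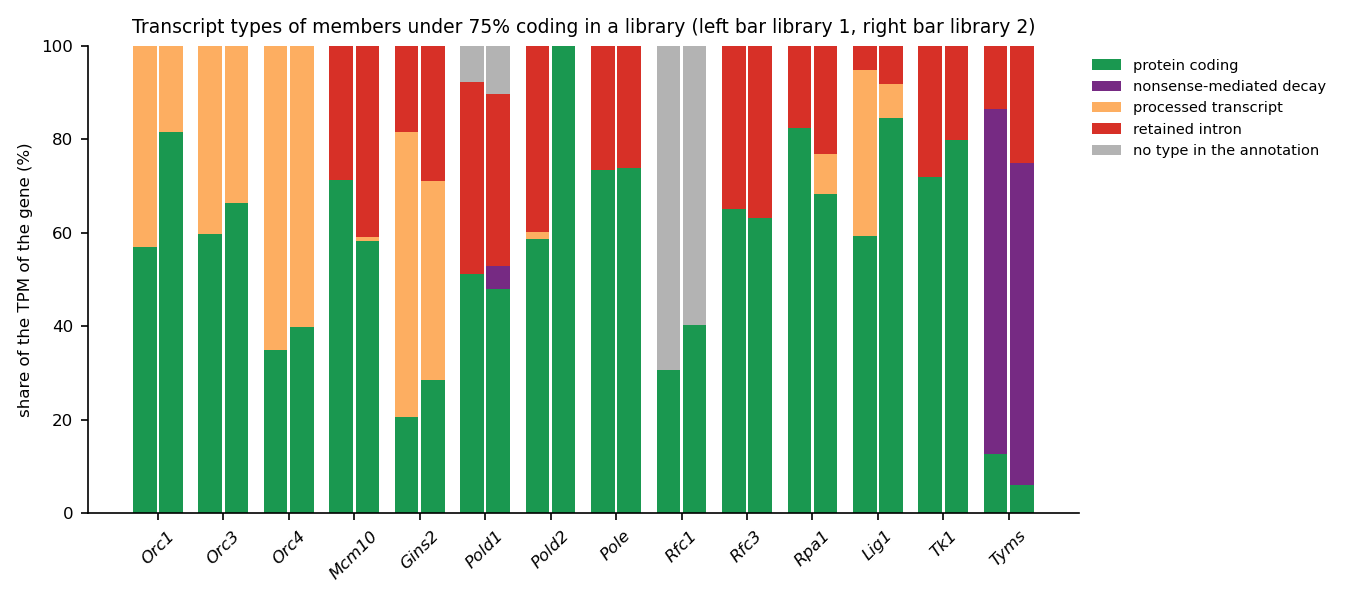
Percent of a gene's TPM in each annotated transcript type, for the 14 DNA replication genes under 75% protein coding in a library; the left bar of each pair is library 1 and the right bar is library 2. Tyms has the smallest coding share, 12.6% and 6.03%, and the untyped part of Rfc1 is drawn in grey.

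Counting coding transcripts alone changed the balance of several complexes. For GINS, the highest over the lowest subunit became 13.2-fold in library 1 and 10-fold in library 2, since Gins2 took the place of Gins3 as the lowest. For RFC it became 5.15-fold and 3.45-fold, with Rfc1 the lowest and its untyped transcripts left out. For ORC it was 19.6-fold and 16.1-fold, with Orc2 over Orc1 in library 1 and Orc4 over Orc1 in library 2. The Orc2 value rests in part on a short transcript, Orc2-205, of 151 bases effective length, which had 8.94 TPM from 136 of 2253 counts in library 1, against 6.32 TPM for the full-length Orc2-201. For RPA it was 4.9-fold and 3.41-fold. MCM2-7, at 2.83-fold and 3.61-fold, and polymerase alpha-primase, at 3.05-fold and 2.99-fold, moved less.

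**Figure D4:**
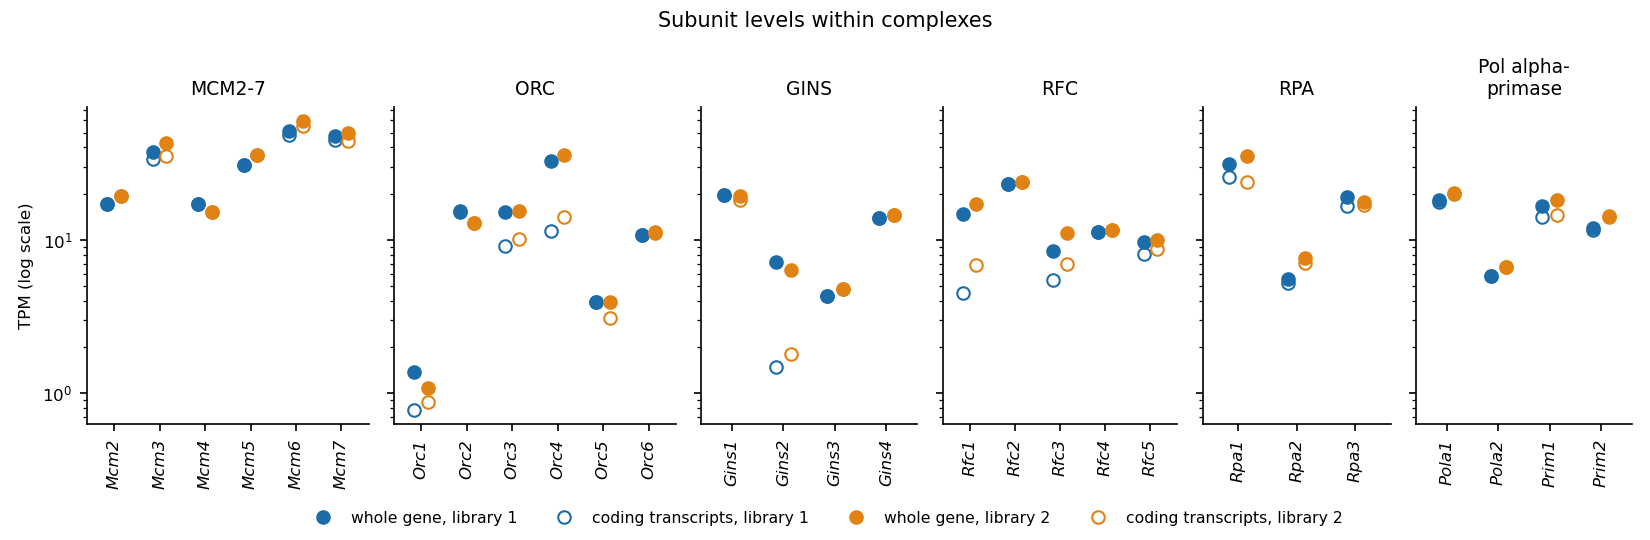
TPM on a log scale of the subunits of 6 complexes, with filled circles for the whole gene and open circles for its protein-coding transcripts, in library 1 (blue) and library 2 (orange). Open circles fall well below filled ones for Orc4, Gins2 and Rfc1, and hardly at all for polymerase alpha-primase, where the coding span is 3.05-fold and 2.99-fold.

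Reads of overlapping genes may limit some values. A gene on the opposite strand overlaps 14 of the 44 genes, and for 12 of them it is protein coding. The same share over all genes was not computed. Whether the counting used strand is not given in the sources used here, so without it such reads could not be told apart. The partners with the most reads were Vps35, with 12464 and 15910 counts beside 1467 and 1732 counts for Orc6, and Eif4a2, with 15135 and 18521 counts beside 1140 and 1309 counts for Rfc4. The counts of Orc6, Vps35 and Rfc4 were whole in both libraries, and those of Eif4a2 were not. Whether any reads of Orc6 or Rfc4 came from these partners was not tested.

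None of the replication genes passed the 1.5-fold limit between the libraries. After TMM scaling of the counts, no gene of the 44 differed by 1.5-fold or more in either direction, while 8.37% of the 10175 nuclear protein-coding genes whose mean count reached 100 did, 479 higher in library 1 and 373 higher in library 2. Deeply counted genes vary less, and among the 8813 genes within the range of mean counts of the 44, 268 to 20581, 5.24% passed 1.5-fold, a range chosen after the data were seen. The median log2 ratio of library 1 over library 2 was -0.02 over the 44 genes and -0.004 over all 10175. The median size of the ratio was 0.0995 on the log2 scale for the 44 genes and 0.171 for all. These ratios compare 1 library with another, and their intervals are exact 95% binomial intervals that cover counting error only.

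Counting intervals excluded equality for 10 genes that were higher in library 1 and 15 that were lower, and held it for 19. By the ratio of deposited TPM, 3 of the 10 had the other sign, Orc4 with a log2 ratio of 0.14 by counts and -0.12 by TPM, Cdc6 with 0.17 and -0.09, and Rpa1 with 0.10 and -0.17, and none of the 15 did. Among all 10175 genes, 68.6% had an interval that excluded equality, so an excluded equality is common at this depth. Lig1 (chromosome 7, 13277283 to 13311433) had the highest ratio, with 3347 counts in library 1 and 3036 in library 2, a log2 ratio of 0.39 (interval 0.32 to 0.46), or 1.31-fold. Its coding transcripts went the other way, with 10.94 TPM in library 1 and 12.33 TPM in library 2. The noncoding Lig1-207 took 1317 and 12.9 counts. Cdc45 (chromosome 16, 18780447 to 18811987) had the lowest ratio, with 3262 and 4971 counts and a log2 ratio of -0.36 (interval -0.43 to -0.3), a ratio of 0.778. Rpa2 was next with a log2 ratio of -0.35 and 841 and 1269 counts, and Rfc3 had -0.28 with 915 and 1314 counts. On the other side, Cdt1 had 0.28, Pole2 had 0.25 and Mcm4 had 0.24 on the same log2 scale. Genes lay on both sides of 0 in each of the 5 steps, with medians between -0.07 for the polymerases and 0.009 for licensing. Within the polymerase step, all 4 genes of polymerase alpha-primase were lower in library 1, with log2 ratios between -0.17 and -0.09 and intervals that excluded 0.

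Erythroid markers stood higher in library 1. Of the 10 erythroid markers whose mean count reached 100, 8 were higher in library 1 by 1.5-fold or more and none was lower, with a median log2 ratio of 1.09. Klf1, the erythroid transcription factor, had 283 and 75 counts. The median log2 ratio was 0.12 for the neutrophil and promyelocyte markers and -0.17 for the monocyte markers, and none of either passed 1.5-fold. In these bulk libraries, fewer cells of a type and less RNA per cell cannot be told apart. The part of these cell types in the ratios of the replication genes was not tested.

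**Figure D5:**
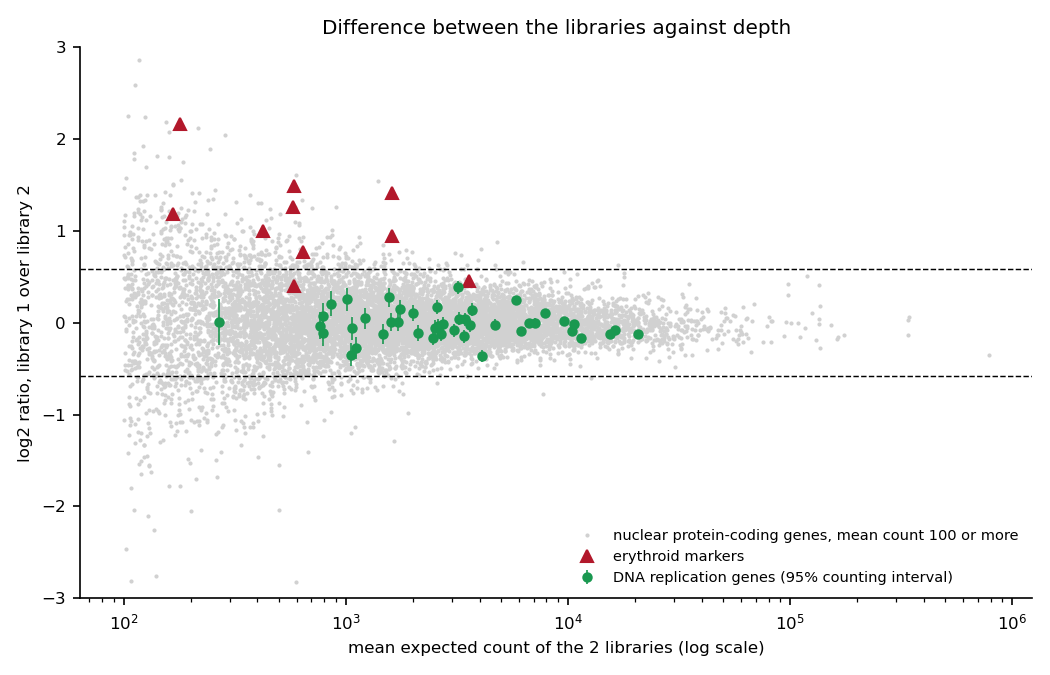
Log2 ratio of library 1 over library 2 from TMM-scaled counts against the mean expected count on a log scale, for nuclear protein-coding genes whose mean count reached 100 (grey), erythroid markers (red triangles) and the 44 DNA replication genes (green, bars are 95% counting intervals). Dashed lines mark 1.5-fold; the replication genes lie between -0.36 and 0.39, and 8 erythroid markers lie above the upper line.

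Genes that act beside these 44 were expressed as well. The median over 37 further replication genes was 15.95 TPM, 22 of them at 10 TPM or more in both libraries and all 37 at 1 TPM or more. The highest was Top2a, the topoisomerase that untangles sister chromatids, with 174.5 and 190.2 TPM, above Pcna in both libraries. Ssrp1 and Supt16, the subunits of the histone chaperone FACT, had 55.3 and 62.4 TPM and 38.85 and 41.8 TPM. Dnmt1, the maintenance DNA methyltransferase, had 40.99 and 43.5 TPM, and Tipin, of the fork protection complex, had 38.2 and 44.3 TPM. Mcm8 and Mcm9, relatives of the ring that act in recombination, were low at 1.73 and 1.41 TPM and at 1.65 and 1.89 TPM. None of the 37 passed 1.5-fold between the libraries.

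Of 18 further nucleotide genes, 9 reached 10 TPM in both libraries, with a median of 11.1 TPM. Samhd1, which breaks down deoxynucleotides, was the highest at 168.5 and 165.3 TPM and exceeded every gene of the replication machinery, Pcna included. Cmpk1, a pyrimidine nucleotide kinase, had 62.8 and 72.1 TPM, Paics, of purine synthesis, had 46.5 and 61.5 TPM, and Impdh2, of guanine nucleotide synthesis, had 29.9 and 32.8 TPM. None of the 18 passed 1.5-fold between the libraries.

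Among 20 E2F and RB regulators, the median was 10.4 TPM and 10 reached 10 TPM in both libraries. Tfdp1, the dimer partner of E2F factors, had 27.5 and 27.9 TPM. The cyclin-dependent kinase inhibitors Cdkn2c and Cdkn1b had 25.3 and 25.7 TPM and 25.6 and 25.3 TPM, and Rbl1, a pocket protein of the RB family, had 22.4 and 24.2 TPM. E2f2, an activating E2F factor, had 15.8 and 16.3 TPM and exceeded E2f1, at 2.3 and 2.12 TPM, by 6.87-fold and 7.69-fold. Lower in library 1 by more than 1.5-fold were 2 of the 20, E2f5 with 90 and 299 counts and Cdkn1a with 154 and 281 counts, and none was higher. The 32 mitosis genes had a median of 31.98 TPM, with 30 at 10 TPM or more in both libraries and none past 1.5-fold. By mean level the highest was Smc4, a condensin subunit, with 135.2 and 151.1 TPM, followed by the cyclin Ccna2 with 61.5 and 71.15 TPM, the chromosomal passenger protein Birc5 with 59.7 and 63.8 TPM and the spindle motor Kif11 with 56.9 and 60.6 TPM.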

How the data were processed

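The genome was mm10 and the annotation GENCODE M4, per the deposited text files. The aligner, quantifier and settings are not given in the sources used here. Deposited expected counts are estimated reads per gene or transcript, not normalized, and were rounded to whole numbers for scaling. The deposited TPM values are per length over all rows of a table, beside which the authors give a posterior mean TPM and an interval whose level is not stated. Percents of single transcripts use the percent column that the authors deposited. Coding shares were computed here from the TPM or expected counts of the transcripts of each gene. Every ratio and log2 value was computed here from the deposited columns. Depth was 42703213 counts for library 1 and 50532821 for library 2.

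Names and types came from GENCODE M21, on the same genome build, by ID without version, for 42462 of 43346 mouse gene IDs. Ratios used TMM factors from edgeR 4.0.16 in R 4.3.3 over genes whose mean count reached 10. The rule for calling 1.5-fold was run on simulated counts with 2-fold changes and counting error alone (Poisson). That run checks the code and does not show how the rule performs on these libraries. Intervals are exact Clopper-Pearson at 95%, computed with SciPy 1.17.1, and cover counting error alone, because no molecular identifiers are named and reads need not be separate molecules. With 1 group of 2 libraries there is no test and no p-value. Alternatives were DESeq2 1.42.0 size factors, total counts, posterior mean TPM, rescaled TPM, coding transcripts, other limits and each library alone.

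All 44 genes are named with both TPM values. Fuller values are given for the highest and lowest gene of each step and for those with under 50% coding TPM in both libraries. Of each pathway list and the mitosis list the 4 highest were named; Supt16, Mcm8, Mcm9, Rrm2b, Tk2, E2f1, E2f2, the genes past 1.5-fold and the named markers were taken after their values were seen. The genes and lists were chosen with earlier results of these data known. A protein display planned for MCM2-7 was not made. No paired analysis was possible because there is only 1 group.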

Additional observations from a re-analysis of the deposited data

How the results depend on the processing

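Of 59 alternative values of the summary results, 44 stayed within the spread between the libraries, or within 1.5 times for a count, and 15 moved. Some of the unmoved values could not have moved. For the complexes, each library alone was held against a spread taken from the same 2 libraries. All 44 genes passed the count filter and the 1 TPM limit, and with none past 1.5-fold none could pass 2-fold. The tally is therefore no measure of robustness. The median level of the 44 genes was 15.6 to 15.9 TPM with each library alone. With TPM rescaled over nuclear protein-coding genes it was 63.9 TPM, and 43 genes reached 10 TPM in both libraries. That rescaling raises the TPM of every nuclear protein-coding gene. The share of all or of detected genes at 10 TPM after it was not computed. The highest over the lowest ORC subunit, 28.2-fold as the mean of the ratios in the 2 libraries, was 14.4-fold by posterior mean TPM and 17.8-fold in coding transcripts. By posterior mean TPM Orc1 was at 2.38 TPM. In coding transcripts the same ratio was 11.6-fold for GINS, 4.3-fold for RFC and 4.16-fold for RPA, against 4.27-fold, 2.55-fold and 5.12-fold from whole genes. Counting untyped transcripts as coding, chosen after seeing the data, gave 17.8-fold, 11.6-fold, 3.81-fold and 4.16-fold for ORC, GINS, RFC and RPA. Genes under 50% coding in both libraries numbered 2 by expected counts, Rfc1 and Tyms, 6 by posterior mean TPM, and 3 with untyped transcripts counted as coding, which leaves out Rfc1. Without the reverse strand, E2F letters were present in 13 of the 36 genes and CCAAT in 11, beside 5.84% and 23.7% of all genes of the table; the first window of each gene alone, also chosen after seeing the data, gave 20 and 22. No gene passed 1.5-fold under DESeq2 size factors, total counts, deposited TPM or no count filter, or passed 2-fold, and the median log2 ratio lay between -0.098 and -0.005. Beyond the construction of each alternative, the cause was not tested. Depth limits Orc1 most, at 246 and 290 counts. No paired analysis was possible because there is only 1 group.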
